A study of Mus musculus with 19 samples.

Results

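Cytoplasmic RNA of brain slices from mice lacking Fmr1 (KO) was compared with that of wild-type (WT) littermates, gene by gene. The members of the comparison were all RNA libraries in the deposited gene tables, 3 KO and 4 WT, which makes 7 of the 14 libraries in the tables and 7 of the 19 samples in the labels. The other libraries in the tables are ribosome footprints of the same lysates, which entered no test of RNA and are given only beside it. Both groups were male C57BL/6 mice aged 28 to 35 days, and the series text names the substrain C57BL/6N. The protocol gives the background of the KO backcross as C57BL/6, with no substrain. The KO line had been backcrossed for over 10 generations. Each library pooled 8 to 10 transverse slices of 400 µm from 6 to 8 mice, which had rested at 30 °C for 3 to 4 h and then received cycloheximide (100 µg/ml), an inhibitor of translation elongation. Per the protocol CA3 was cut away to enrich CA1, whereas the source name gives hippocampal-cortical slices. RNA came from the supernatant of a detergent lysate (1% NP-40, cleared at 2000 g and 20000 g), so nuclear RNA was largely left out by the preparation.

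FMRP, the product of Fmr1, binds RNA and sits on the coding sequences of many neuronal mRNAs and slows their translation. Its loss causes fragile X syndrome, a common inherited form of intellectual disability and autism. In the hippocampus FMRP is best known for restraining protein synthesis at synapses downstream of metabotropic glutamate receptors. The comparison asks which transcripts changed in cytoplasmic level without it.

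Fmr1 (GRCm38 chromosome X, 68678536 to 68717963) checked the labels. Its RNA level, in TPM (transcripts scaled to length and to library size), was 5.31, 4.07 and 3.90 TPM in KO libraries 1 to 3 and 17.3, 16.6, 19.3 and 15.99 TPM in WT libraries 1 to 4. The highest KO value was far below the lowest WT value. Relative to WT, its log2 fold change (KO minus WT, the sign used throughout) was -2.01 ± 0.11 (SE, adjusted p = 9.82e-08). Its footprints had a log2 fold change of -3.21 ± 0.06. The tables count whole genes, so the exons behind the RNA left in KO are not known.

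Beyond Fmr1 the changes were many and small. Of 13877 genes tested, edgeR called 293 higher and 385 lower in KO (adjusted p under 0.05), which is 2.11% and 2.77% of genes, or 4.89% in either direction. Their median log2 fold change was 0.29 in the higher and -0.32 in the lower set. A 1.5-fold change or more was reached by 16 higher and 28 lower genes, and a 2-fold change or more by 2 and 5. In 285 of the 293 higher genes and 371 of the 385 lower ones the KO and WT libraries did not overlap. Over all genes tested, 9.19% had every KO library above every WT library and 10.3% had every KO library below. All genes tested had a median log2 fold change of -0.005, which the scaling sets, so a rise or fall shared by all transcripts cannot be seen.

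The called genes were more abundant than the rest, with median levels of 50.9 TPM (higher) and 44.7 TPM (lower) against 24.0 TPM over all genes tested. The lower set leaned toward long transcripts: with genes cut into 10 equal classes by length, 4.68% of the longest class were called lower, against 2.31% of the shortest, while the higher set took 2.16% and 1.59%. The first principal component of the 7 libraries held 35.5% of the variance and separated KO (-12.9 to -6.65) from WT (4.72 to 10.5). The number of calls depended on single libraries. It ranged from 94 higher genes without WT library 4 to 352 without KO library 3, and from 122 lower genes without KO library 2 to 520 without KO library 3. Called in every fit that left out 1 library were 132 of the 678 genes (56 higher and 76 lower), and 89 (36 and 53) were called under every alternative listed in the closing section.

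**Figure D1:**
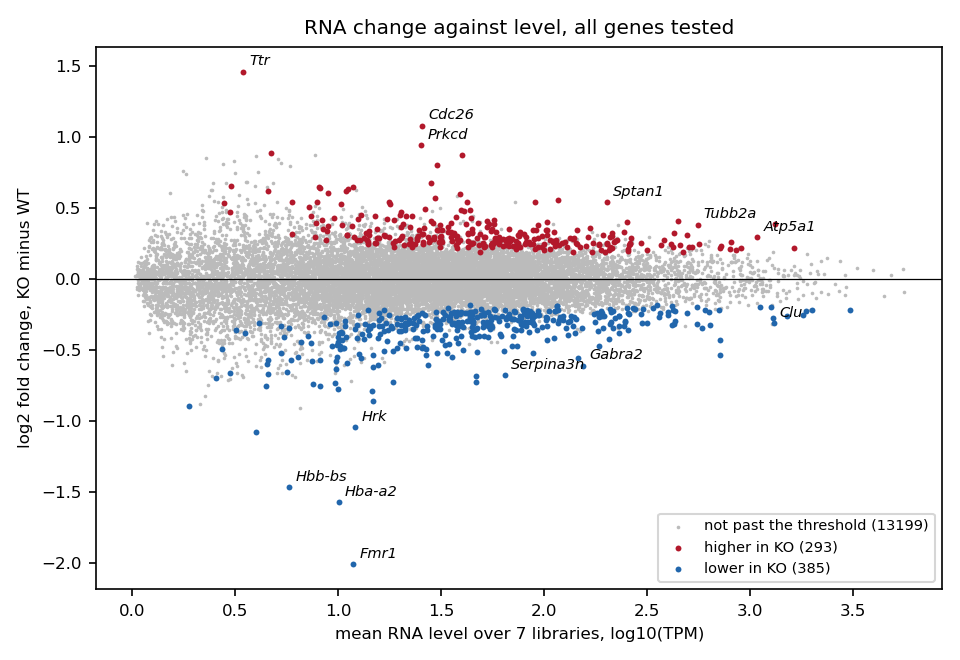
Log2 fold change (KO minus WT) against mean RNA level, log10(TPM) over 7 libraries, for the 13877 genes tested. Red points are the 293 genes called higher in KO and blue points the 385 called lower; the points farthest from 0, such as Fmr1 (-2.01), Hba-a2 (-1.57) and Ttr (1.46), lie at low levels, and Gabra2 (-0.61), Serpina3n (-0.68) and Sptan1 (0.54) at moderate to high levels.

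The GABA-A receptor subunit gene Gabra2, which encodes the alpha2 subunit found at synapses of hippocampal neurons, had the smallest p after Fmr1. Gabra2 (chromosome 5, 70958392 to 71095849) stood at 127, 118 and 112 TPM in KO libraries 1 to 3 and at 186, 172, 182 and 185 TPM in WT libraries 1 to 4. The groups did not come near each other, and the log2 fold change was -0.61 ± 0.05 (adjusted p = 4.39e-05). Its level is known to differ between substrains of C57BL/6, being reduced in C57BL/6J. Of 7 measured genes known to differ between C57BL/6 substrains 1 was called, Gabra2 itself, or 14.3%, against 4.89% over all genes tested. Nnt, a mitochondrial transhydrogenase gene disrupted in C57BL/6J, was at 30.9 to 32.6 TPM in KO and 31.4 to 35.8 TPM in WT (log2 fold change -0.08 ± 0.06, adjusted p = 0.492), and Wdfy1, Ide and Cyfip2 were at 0.09, 0.01 and -0.01. The substrain of the KO backcross is not given in the sources used here, and its part in the Gabra2 difference was not tested.

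Sptan1, the gene of alpha-II spectrin, a scaffold of the membrane skeleton in axons and spines, rose from 171, 161, 166 and 177 TPM in WT to 263, 244 and 229 TPM in KO (log2 fold change 0.54 ± 0.05, adjusted p = 5.51e-05). Its lowest KO library stood above its highest WT library. Serpina3n, a secreted protease inhibitor made by reactive astrocytes, fell from 76.6, 78.7, 72.1 and 78.8 TPM in WT to 47.8, 44.9 and 50.1 TPM in KO (-0.68 ± 0.06, adjusted p = 5.51e-05). Wfs1, an endoplasmic reticulum membrane protein gene strong in CA1 pyramidal neurons, fell from 109.7, 90.3, 99.7 and 105 TPM to 74.7, 68.1 and 69.0 TPM (-0.52 ± 0.06, adjusted p = 6.54e-04). Klk8, a secreted serine protease of hippocampal neurons (neuropsin), fell from 47.1, 58.7, 57.4 and 60.8 TPM to 34.9, 35.6 and 32.1 TPM (-0.73 ± 0.09, adjusted p = 0.00131). None of these 4 genes had overlapping groups, which the naming rule in the closing section required of Serpina3n and Klk8. All 4 were called under every alternative. Of 12 CA1 markers, Wfs1 among them, 2 fell (Wfs1 and Dcn) and 0 rose, 10 values were below 0 (median -0.12), and the summed level overlapped (1342 to 1444 TPM in KO, 1418 to 1590.0 TPM in WT). The part of CA1 tissue in the fall of Wfs1 was not tested. Footprints of the same lysates had log2 fold changes of 0.28 for Sptan1, -0.90 for Serpina3n, -0.41 for Wfs1 and -0.61 for Klk8, and -0.63 for Gabra2.

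**Figure D2:**
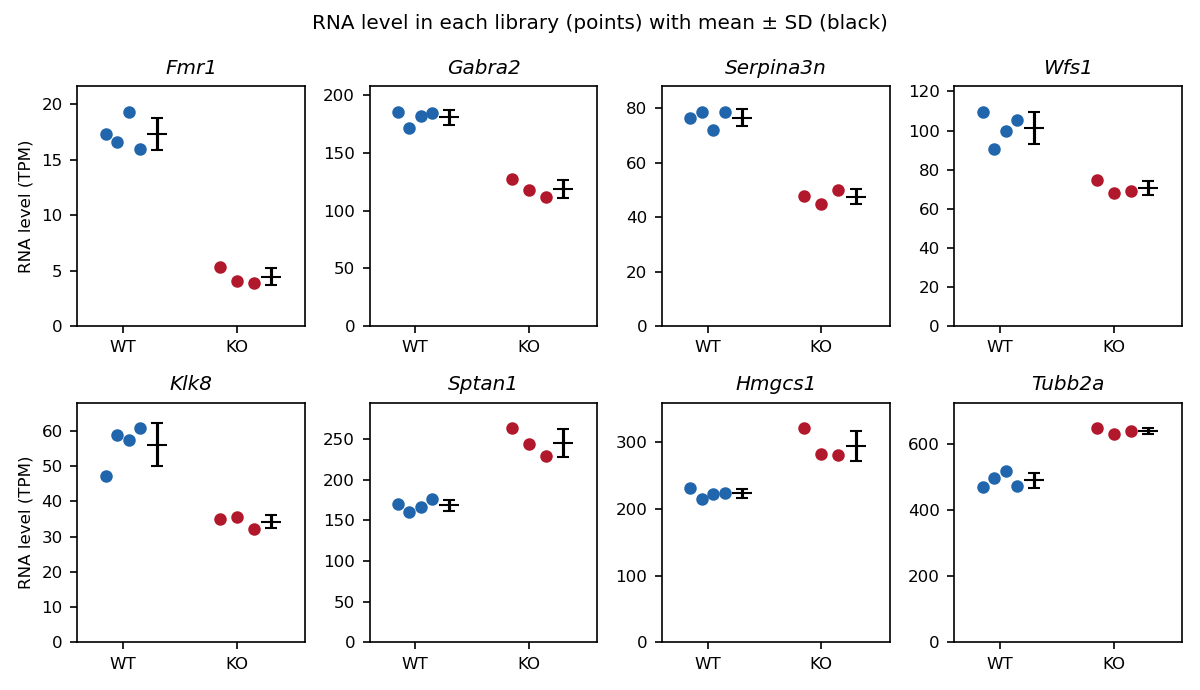
RNA level in TPM of 8 genes in each WT (blue, 4) and KO (red, 3) library, with mean ± SD in black and each axis starting at 0. Fmr1, Gabra2, Serpina3n, Wfs1 and Klk8 were lower and Sptan1, Hmgcs1 and Tubb2a higher in every KO library than in every WT library.

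The largest increase by the naming rule was that of Cdc26, a small subunit gene of the anaphase-promoting complex, which was at 29.9, 45.5 and 33.9 TPM in KO and at 15.4, 18.2, 15.3 and 20.8 TPM in WT (log2 fold change 1.08 ± 0.17, adjusted p = 0.00502). All 3 KO libraries lay above the WT range, which the naming rule required. Cdc26 was called in every alternative that tested it. Its footprints were at -0.08 ± 0.06. Prkcd, a protein kinase C gene, was at 30.7, 39.1 and 34.4 TPM in KO, while its WT libraries split into 12.9 and 13.7 TPM (libraries 1 and 3) and 23.5 and 22.8 TPM (libraries 2 and 4). Its log2 fold change of 0.94 ± 0.15 passed (adjusted p = 0.00665) but missed the threshold with replicates 1 and 2 against 3 and 4 as a covariate (adjusted p = 0.0733). Prkcd is strong in the thalamus, and thalamic markers are taken up with the cell types.

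The next increases were smaller. Uqcc3, an assembly factor of respiratory complex III, rose from 14.4, 30.1, 27.4 and 18.4 TPM to 38.0, 43.4 and 38.5 TPM (0.80 ± 0.17, adjusted p = 0.0165), although not without KO library 2 (0.0545) or with the replicate number as a block (0.0504). Fundc2, a mitochondrial outer membrane protein gene, rose by 0.67 ± 0.12 and Cirbp, the cold-inducible RNA-binding protein, by 0.60 ± 0.12. Ramp3, an accessory protein of calcitonin-family receptors, rose by 0.57 ± 0.11. These 3 were called in every alternative that tested them. Mcm3, a subunit of the replicative helicase, was at 0.65 ± 0.12 and lost its call without library KO 2 or WT 1. The adaptor gene of Toll-like receptors Myd88 was at 0.64 ± 0.12 and the ribosome biogenesis gene Surf6 at 0.60 ± 0.11. Surf6 lost its call without KO library 3 and Myd88 without library KO 1, KO 2, WT 1 or WT 4. The remaining 6 of the 15 largest increases (Rab37 at 0.88, Brms1, Cyb5rl, Fam101b, BC027231 and Gca at 0.62 to 0.64) each lost the call without at least 3 of the libraries.

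The largest decrease after Fmr1 was that of red blood cell transcripts. Hba-a2 (alpha-globin; reads can be shared with a nearly identical gene copy) was at 2.09, 5.06 and 6.00 TPM in KO and at 17.9, 13.5, 10.5 and 15.1 TPM in WT (-1.57 ± 0.24, adjusted p = 0.00442). Hbb-bs (beta-globin) was at 2.21, 2.96 and 3.34 TPM in KO and at 7.98, 8.97, 6.92 and 8.02 TPM in WT (-1.47 ± 0.19), and both were called in every alternative that gave them an adjusted p. Animals were perfused with buffer before slicing. Blood left in the tissue was not measured otherwise, and its part in other differences was not tested.

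Hrk, a pro-apoptotic BH3-only protein gene, was at 9.45, 8.08 and 6.01 TPM in KO and at 18.7, 9.70, 17.9 and 14.6 TPM in WT. WT library 2 came close to the KO range, and the call (-1.04 ± 0.21, adjusted p = 0.0275) was lost without library KO 2, KO 3, WT 1, WT 3 or WT 4. Ntn5, a netrin-family gene (-0.76 ± 0.13), Mc4r, the melanocortin 4 receptor gene (-0.73 ± 0.13), and Tmem255a, a membrane protein gene of chromosome X (-0.72 ± 0.09), fell in every alternative that tested them. The cerebellin-family synaptic organiser gene Cbln4 was at 7.28, 7.45 and 6.45 TPM in KO and 12.8, 11.4, 9.68 and 14.8 TPM in WT (-0.78 ± 0.15, adjusted p = 0.0175), with no call without KO library 3 (0.0612) or WT library 4 (0.117). Agtrap, whose product binds the angiotensin II receptor, was at -0.86 ± 0.17 and Klf2, a Krüppel-like transcription factor gene, at -0.79 ± 0.16, and both lost the call without KO library 2. Ugt1a6a (-0.90), Dlk1 (-0.76), Bhlha9 (-0.74), Ccdc114 (-0.70) and Ctxn2 (-0.68) completed the 15 largest decreases and each lost the call without at least 2 libraries. Outside the rule, Ptma (0.87, with overlapping groups) and Gkn3 (-1.08, of very low count) were called.

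The footprint values of these 30 genes stood at different distances from the RNA values. Footprints of Cdc26, Uqcc3, Fundc2 and Mcm3 were at -0.08, 0.01, -0.03 and 0.00, and those of Hrk and Klf2 at -0.09 and 0.00. Those of Ramp3, Prkcd, Ntn5, Klk8 and Hba-a2 were at 0.37, 0.46, -0.64, -0.61 and -1.60. The difference between the assays was not tested here.

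**Figure D3:**
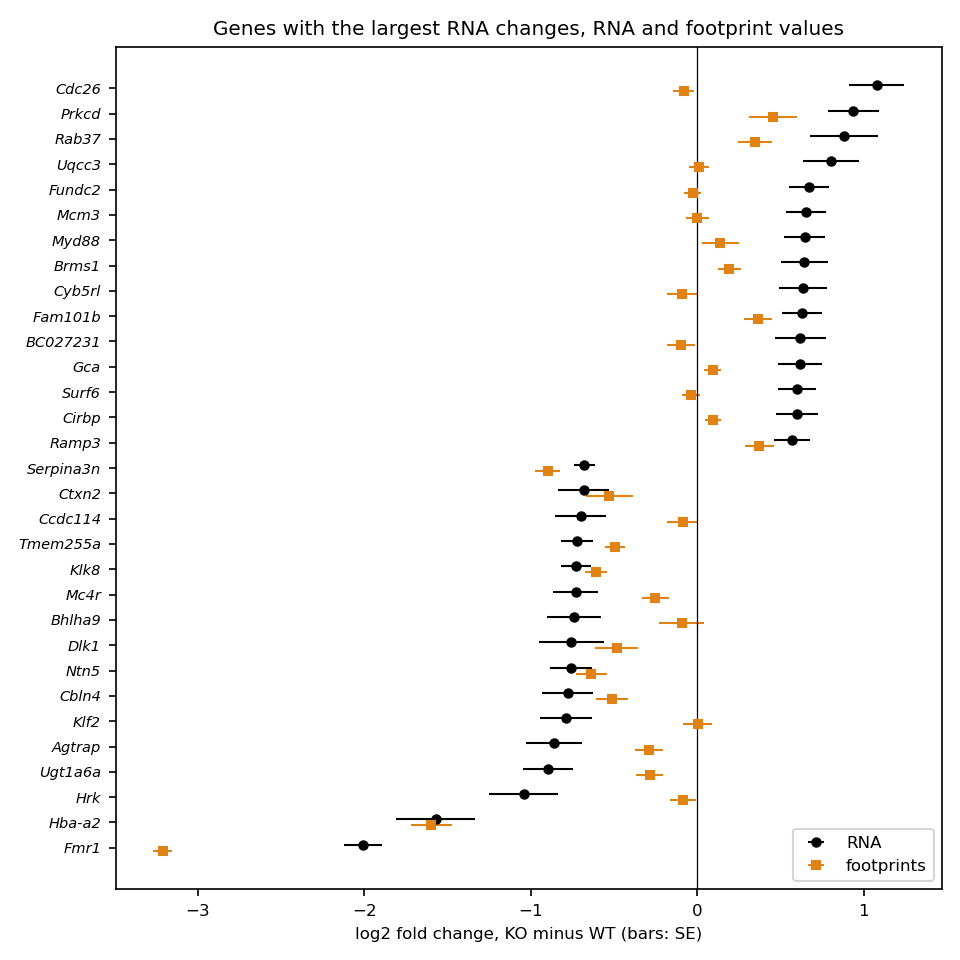
Log2 fold change (KO minus WT) with its SE for Fmr1, the 15 largest increases and the 15 next largest decreases in RNA, with RNA as black circles and footprints of the same lysates as orange squares. RNA values chose the genes, so their size is no finding; footprints of Cdc26 (-0.08), Uqcc3 (0.01) and Hrk (-0.09) lie near 0, and those of Hba-a2 (-1.60) and Klk8 (-0.61) lie near the RNA values.

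Among 65 genes of the postsynaptic density and of glutamate receptors, 12 fell and 1 rose, with a median log2 fold change of -0.12 against -0.005 over all genes, and 57 of the 65 had a negative value. For this and every later list the background shares are the 2.77% lower and 2.11% higher given above. The scaffold genes Shank1 and Dlgap3, which tie glutamate receptors to the actin skeleton, were among them. Shank1 was at 150.1, 169 and 199.9 TPM in KO and 251, 231, 210.3 and 236 TPM in WT (-0.42 ± 0.08, adjusted p = 0.0130). KO library 3 came near the lowest WT library, and without KO library 2 the adjusted p was 0.0507. Dlgap3 was at 178, 175 and 203 TPM against 235, 230.3, 214 and 237 TPM (-0.31 ± 0.06, adjusted p = 0.0137), with no call without KO library 1 or 2. Shisa6, an auxiliary subunit of AMPA receptors (-0.40 ± 0.07), was called under every alternative. Shank3, the kainate receptor genes Grik4 and Grik5, the metabotropic receptor gene Grm2, the adhesion gene Lrrtm2, Homer3, Olfm1 and Cnih3 also fell, at -0.30 to -0.23, and Dlg3 (SAP102) rose by 0.30. The count that fell includes Nlgn2, a gene of inhibitory synapses that is taken up below. The list count followed single libraries: it was 1 without KO library 2, 3 without WT library 4, 4 without KO library 1, 5 without WT library 1, 7 without WT library 2, 8 without WT library 3 and 16 without KO library 3.

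Some genes of inhibitory synapses and of interneuron inputs fell as well. In a list of 14 such genes drawn up after their values were seen, 4 fell and 0 rose (median -0.10). Igsf9b, an adhesion molecule of inhibitory synapses, fell from 31.4, 26.9, 27.8 and 30.9 TPM to 21.7, 19.1 and 21.8 TPM (-0.48 ± 0.07, adjusted p = 0.00326). Elfn1, a postsynaptic protein on interneurons that shapes their inputs, fell from 21.8, 22.7, 21.4 and 23.8 TPM to 16.1, 15.98 and 17.1 TPM (-0.45 ± 0.07). Iqsec3, an exchange factor bound to gephyrin, was at -0.29 ± 0.06. These 3 were called under every alternative. Nlgn2, the neuroligin of inhibitory synapses, was at -0.26 ± 0.06 (adjusted p = 0.0175) and was not called without any one of KO libraries 1 and 2 and WT libraries 1 and 4. Of 14 GABA-A receptor subunits 2 fell, Gabra2 and Gabra3 (-0.35 ± 0.07, no call without WT library 4), 0 rose, and 13 had negative values (median -0.06).

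Among channels, all 3 genes of pore-forming T-type calcium channel subunits, which open at low voltage, fell: Cacna1i by 0.37 ± 0.05, Cacna1h by 0.35 ± 0.06 and Cacna1g by 0.30 ± 0.06. Cacna1h was at 40.7, 37.5 and 42.9 TPM in KO and 51.3, 52.9, 50.6 and 51.2 TPM in WT. Cacna1g lost its call without KO library 2 (adjusted p = 0.0556). They were the only called members among 31 sodium and calcium channel genes (median -0.05), or 9.68% called. Of 66 potassium channel genes 2 fell and 0 rose (median -0.07), or 3.03% called, below the 4.89% over all genes tested. Kcnip2, an auxiliary subunit of A-type channels, was at -0.23 and was not called without any one of 6 libraries. Without KO library 3 the count was 6, and without any other library 0. Presynaptic genes were led by increases: 4 of 47 rose and 0 fell (median 0.07). Stx1a, the SNARE protein syntaxin 1A, rose from 84.2, 100.0, 89.4 and 94.7 TPM to 123, 114 and 114 TPM (0.34 ± 0.07, adjusted p = 0.0127) under every alternative. Snap25 and Unc13a were at 0.22 and 0.20 and each lost the call without at least 4 libraries. The count was 1 without WT library 4, 3 without WT library 2, and 2 without any other library. Secreted signals included 3 of 31 neuropeptide and growth factor genes that fell and 0 that rose (9.68% called against 4.89% over all genes tested). They were Igf2 (-0.46 ± 0.08), the granin-family gene Vgf (-0.37 ± 0.08) and Cck, cholecystokinin (-0.26 ± 0.06). Vgf lost its call without KO library 1 or 2, and Cck without those or WT library 1 or 4. The count was 1 without KO library 1, and Igf2 missed the threshold with the replicate number as a block.

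Of 43 immediate-early and activity-induced genes 6 fell and 0 rose (median -0.10, with 14.0% called against 4.89% over all genes tested). They were Zfp36, which promotes decay of AU-rich mRNAs, the transcription factor genes Klf2, Egr1 and Jund, the MAP kinase phosphatase gene Dusp1, and Ptgs2, which encodes cyclooxygenase 2. Fos, Arc and Npas4 were at -0.14, -0.18 and -0.21 and did not pass. Zfp36 was at 45.3, 40.4 and 48.8 TPM in KO and 62.0, 57.8, 61.9 and 58.4 TPM in WT (-0.41 ± 0.08, adjusted p = 0.00983) and was called under every alternative. Egr1 was at 88.1, 72.1 and 97.3 TPM in KO and 113, 130.0, 107 and 115 TPM in WT (-0.43 ± 0.09, adjusted p = 0.0164, or 0.0587 without KO library 2). Dusp1 was at 231, 183 and 225 TPM against 294, 244, 260.0 and 274 TPM (-0.33 ± 0.07, adjusted p = 0.0203, with no call without library KO 2, WT 1 or WT 4). KO library 2 was the lowest for each of these 3 genes. The median deviation of the 43 genes from the midpoint of each gene's KO and WT means was -0.236 in KO library 2. It was -0.044 in KO library 1 and 0.074 in KO library 3, against 0.004 to 0.108 in WT, so the groups overlapped. Without KO library 2, 1 member was called lower, and without KO library 3, 14. Time in the slice chamber, which also moves these genes, is given only as the range for all libraries, and its part was not tested.

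Promoters of 2 of these genes hold a textbook element of activity-dependent transcription, and are shown because both genes fell. The sequences are the 250 bases before the RefSeq start on GRCm38.p6, written 5′ to 3′ on the gene's strand. For Zfp36 (chr7:28379229-28379478, minus strand) the capitals mark a CArG box, the site of serum response factor. For Dusp1 (chr17:26508473-26508722, minus strand) they mark a full cAMP response element (CRE).
Zfp36: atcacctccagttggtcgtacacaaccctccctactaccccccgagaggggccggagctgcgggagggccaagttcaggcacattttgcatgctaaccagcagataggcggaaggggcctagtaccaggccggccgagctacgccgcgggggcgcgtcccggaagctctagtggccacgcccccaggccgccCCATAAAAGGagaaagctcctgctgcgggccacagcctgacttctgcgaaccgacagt
Dusp1: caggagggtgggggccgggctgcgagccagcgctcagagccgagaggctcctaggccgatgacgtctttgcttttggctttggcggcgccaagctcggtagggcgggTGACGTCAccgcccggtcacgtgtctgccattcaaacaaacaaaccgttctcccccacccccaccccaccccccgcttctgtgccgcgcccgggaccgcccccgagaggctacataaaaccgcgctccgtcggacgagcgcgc
The CArG box of Zfp36 lay 58 to 49 bases before the start and the CRE of Dusp1 143 to 136 bases before it. Both strands were searched for the CRE (TGACGTCA) and the CArG box. Of 32851 promoters of the same length 1.55% held the CRE and 1.47% the CArG box. The windows of Klf2, Ptgs2 and Jund held neither, which says only that these letters are not in those windows. Egr1 was not in the promoter table.

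Genes of basic cell machinery that passed mostly rose, each by a small amount. Of 107 splicing factors 14 rose and 1 fell (median 0.09), with 80 values above 0. Hnrnph2 (0.49 ± 0.08), Hnrnpf (0.35 ± 0.06), Nono (0.33 ± 0.06) and Hnrnpk (0.32 ± 0.05) were called under every alternative. Hnrnpk, a multifunctional RNA-binding protein, rose from 195, 187, 189 and 200.04 TPM to 261, 238 and 226 TPM. The one member that fell was Nova2, a neuronal splicing regulator (-0.34 ± 0.07), with no call without KO library 1 or 2. The count of splicing factors that rose was 8 without KO library 1 and 9 without WT library 4, and 11 to 15 without any other library.

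Of 64 translation factors 6 rose and 0 fell (median 0.08). They were Eif3c, a subunit of the initiation factor that joins the small ribosomal subunit (0.29 ± 0.05), the initiation helicase Eif4a1 (0.22) with its cofactors Eif4b and Eif4h (0.23 and 0.25) and its scaffold Eif4g1 (0.22), and Eif4a3, a helicase of the exon junction complex (0.24). Eif3c alone of these 6 was called under every alternative. The count fell to 1 without WT library 4, 2 without library KO 2 or WT 1, and 3 without library KO 1 or WT 2. In a list of 20 cytosolic aminoacyl-tRNA synthetases, drawn up after their values were seen, 6 rose and 0 fell (median 0.17). Aars, which charges alanine tRNA, rose from 85.4, 76.6, 88.5 and 80.8 TPM to 114, 103 and 107 TPM (0.38 ± 0.06, adjusted p = 0.00442), and Yars, the tyrosine enzyme, from 75.5, 77.7, 84.8 and 77.3 TPM to 101, 103 and 97.5 TPM (0.34 ± 0.06). Both were called under every alternative, whereas Tars, Cars, Nars and Hars (0.23 to 0.30) left a count of 2 without library KO 2 or WT 4 and 3 without library KO 1 or WT 1. Of 81 cytosolic ribosomal protein genes 0 rose and 2 fell, Rpl29 and Rps27 (-0.28 and -0.26, both with pseudogenes that can take reads), and of 78 mitochondrial ones 1 rose, Mrpl19 (0.31). The shares called, 2.47% and 1.28%, were below the 4.89% over all genes tested. Rpl29 lost its call without KO library 2, Rps27 without library KO 1, KO 3, WT 2, WT 3 or WT 4, and Mrpl19 without any one library.

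In a list of 17 glycolytic enzymes, also drawn up after their values were seen, 5 rose and 0 fell, and all 17 values were above 0 (median 0.16). Pfkp, an isoform of the phosphofructokinase that commits glucose to glycolysis, rose by 0.35 ± 0.06, Pgk1 by 0.30 ± 0.06 and Ldha by 0.27 ± 0.05, and these 3 were called under every alternative. Ldha, a lactate dehydrogenase subunit gene, was at 441, 422 and 412 TPM in KO and at 348, 346, 373 and 337 TPM in WT. Pfkm (0.26) and Tpi1 (0.21) were also called, and the count was 3 without WT library 4. Of 77 nuclear-encoded respiratory chain subunits 5 rose and 0 fell (median 0.09), including Atp5a1 (0.29 ± 0.05) and Ndufv1 (0.28 ± 0.05) under every alternative. Their count was 2 without library KO 2, WT 1 or WT 4. The 7 libraries overlapped in the median of this list, from -0.025 to 0.115 in KO and from -0.112 to 0.031 in WT. Of 44 assembly factors 3 rose (Uqcc3, Coa7, Foxred1), with 1 left without library KO 2, WT 1 or WT 4.

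Of 42 proteasome subunits 5 rose and 0 fell (median 0.11, with 34 values above 0), among them Psmc3, an ATPase of the regulatory particle (0.26 ± 0.05), and Psmd2, a docking subunit of its base (0.25 ± 0.06). The count was 1 without library KO 1, KO 2 or WT 4, 2 without WT library 2, 3 without WT library 1, and 0 with the replicate number as a block. Vcp, an ATPase that feeds unfolded proteins to the proteasome and was chosen after its values were seen, rose by 0.36 ± 0.06 under every alternative. Of 34 tubulins and microtubule-associated genes 3 rose and 0 fell: Tubb2a (0.38 ± 0.05), Dclk1 (0.22) and Tubb2b (0.22). Tubb2a stood at 649, 631 and 641 TPM in KO against 472, 499, 519.8 and 473 TPM in WT. Close tubulin paralogs share reads, so the split between Tubb2a and Tubb2b is uncertain. The tubulin count was 5 without library KO 3 or WT 3.

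Cholesterol genes moved in both directions. Of 26 members 4 rose and 2 fell. Hmgcs1, the synthase that makes HMG-CoA at the head of the pathway, rose from 231, 215, 222 and 223 TPM to 320.3, 282 and 281 TPM (0.40 ± 0.05, adjusted p = 0.00218) and was called under every alternative. Mvd, which makes isopentenyl diphosphate, and Stard4, a sterol carrier gene, were at 0.39 ± 0.09 and 0.54 ± 0.12. Mvd lost its call without library KO 1 or WT 4, and Stard4 without library KO 1, KO 2 or WT 4. Lss was at 0.24. Scap, the sterol sensor that escorts SREBP to the Golgi, fell by 0.23 ± 0.05, with no call without library KO 1, KO 2, WT 1, WT 3 or WT 4, and Dhcr7, the last enzyme of the pathway, fell by 0.31. The count that rose was 1 without WT library 4 and 2 without KO library 1 or 2. The count that fell was 0 without library KO 1, KO 2 or WT 1, and 1 without WT library 3 or 4. The Hmgcs1 promoter is shown because that gene had the smallest p of the list. The 250 bases before its RefSeq start (GRCm38.p6, chr13:119690101-119690350, plus strand) held 1 sterol regulatory element (SRE, searched as TCACNCCAC on both strands), in capitals, at 137 to 129 bases before the start.
Hmgcs1: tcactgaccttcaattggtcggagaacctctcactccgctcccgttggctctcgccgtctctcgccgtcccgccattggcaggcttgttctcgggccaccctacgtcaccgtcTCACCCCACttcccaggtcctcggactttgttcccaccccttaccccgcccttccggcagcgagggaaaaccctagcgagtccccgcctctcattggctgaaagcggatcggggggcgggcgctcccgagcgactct
Of the 32851 promoters 1.05% held this element. The windows of Mvd, Lss, Scap and Dhcr7 did not hold these letters, and Stard4 was not in the promoter table.

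**Figure D4:**
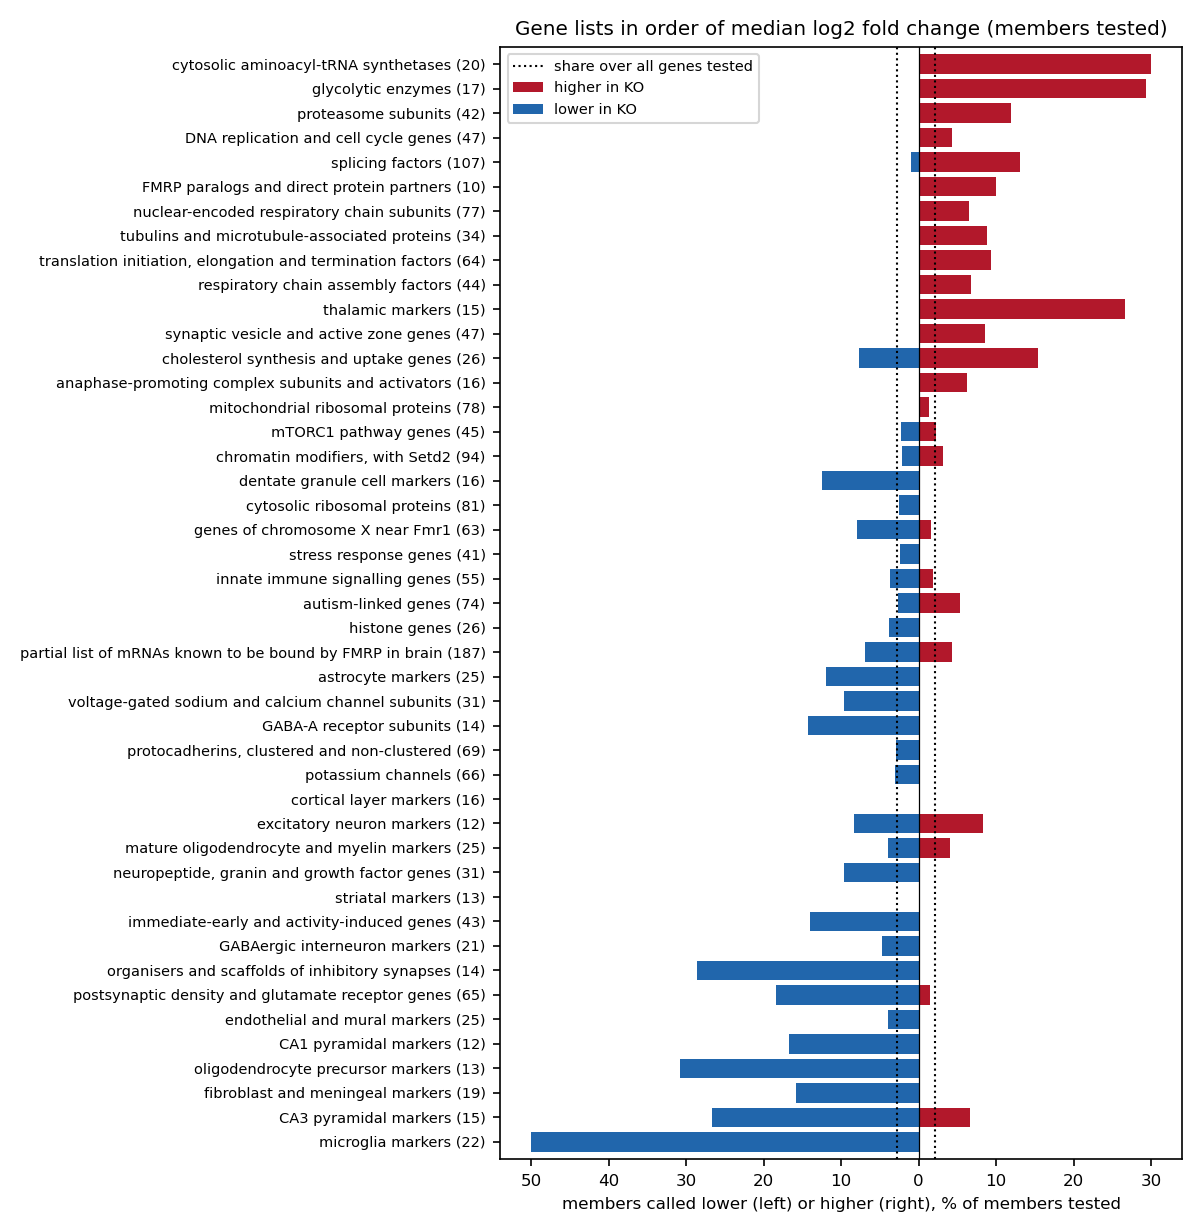
Share of the tested members of each gene list called lower (blue, left) or higher (red, right) in KO, in order of the median log2 fold change, with the number tested in brackets and lists of at least 10 members shown. Dotted lines give the shares over all genes tested, 2.77% lower and 2.11% higher; microglia markers (50.0% called) lie at the bottom and aminoacyl-tRNA synthetases (30.0%) at the top.

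mRNAs known to be bound by FMRP did not move as one group. In a partial list of 187 such mRNAs 8 rose and 13 fell, and 166 did not pass (median -0.04, with 116 values below 0 and 71 above). The share called was 11.2%, against 4.89% over all genes tested. Sptan1, the ankyrin gene Ank2, the chromatin remodeller gene Chd4, Tnik, Eif4g1, Kif1b and Unc13a were among those that rose. Those that fell included Cacna1i, Igsf9b, Lrrc4b, Cacna1g, Shank1, Dlgap3, Med13l, Shank3, Lphn1, Kmt2d and Zfhx2. Lrrc4b, a synaptic adhesion molecule, was at 381, 346 and 371 TPM in KO against 456, 433, 456 and 487 TPM in WT (-0.33 ± 0.05, adjusted p = 0.00519) and was called under every alternative. The balance between the directions depended on single libraries and on length. The number that fell was 24 without KO library 3, 3 without KO library 2, and 6 without any one of KO library 1 and WT libraries 1, 2 and 4. The number that rose was 2 without KO library 1, 3 without WT library 2 or 4, and 5 without WT library 3. With each library's length trend removed they were 14 and 9, with a median of -0.02.

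FMRP's paralogs and partners changed little. Of 10 such genes 1 was called, Caprin1, an RNA granule protein (0.22 ± 0.06, adjusted p = 0.0474), and its call was lost without any one of KO library 1 or 2 or WT libraries 1 to 4. Fxr1, a paralog of Fmr1, was at 19.5, 16.9 and 15.9 TPM in KO and 14.4, 14.9, 13.9 and 15.2 TPM in WT, so that the groups did not overlap but the test did not pass (0.24 ± 0.08, adjusted p = 0.110). Cyfip1 and Cyfip2, which link FMRP to the cap-binding complex and to actin, were at 0.03 and -0.01. Of 94 chromatin modifiers 3 rose and 2 fell (median -0.01), or 5.32% called, near the 4.89% over all genes tested. Without 1 library these counts were 0 to 4 and 0 to 3. Both were 0 without library KO 1, WT 2 or WT 4. Setd2, the H3K36 trimethylase, was named after its values were seen. It was at 13.5, 11.3 and 10.5 TPM in KO and 10.7, 9.71, 10.5 and 11.5 TPM in WT (0.13 ± 0.08, adjusted p = 0.367), and the groups overlapped. Of 74 autism-linked genes 4 rose and 2 fell (median -0.02), or 8.11% called against 4.89% over all genes tested. The smallest p among them was that of the transcription factor gene Mef2c (0.35 ± 0.07, called under every alternative). Leaving out 1 library gave 1 to 4 and 0 to 3, with the fewest increases without KO library 1.

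Genes of chromosome X near Fmr1, which stay linked to the mutant allele through backcrossing, included 6 called members of 63 tested, 1 higher and 5 lower (median -0.02). That is 9.52% called, against 4.89% over all genes tested. On the whole of chromosome X, Fmr1 included, 19 of 475 genes rose and 13 fell, or 6.74% called. Fundc2 lies 6.70 Mb from the start of Fmr1. Cdr1 (-0.61 ± 0.10, at -7.50 Mb, on the other side) has an antisense circular RNA partner, and reads of the 2 cannot be told apart without stranded counting, which is not given in the sources used here. Bgn, the proteoglycan biglycan (-0.48 ± 0.09, 4.81 Mb), and Gabra3 (3.75 Mb) fell as well. Plxna3 and Hcfc1 (-0.28 and -0.24) were not called without any one of KO libraries 1 and 2 and WT libraries 1, 2 and 4, which left a count of 3 that fell, or 2 without WT library 4. Linked flanking sequence and loss of FMRP cannot be told apart for these genes.

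Markers of the cell types checked the tissue and showed several shifts. Markers of excitatory neurons (Slc17a7 with means of 2625 and 2784 TPM in KO and WT), CA1 (Fibcd1 at 117 and 135 TPM) and interneurons (Gad1 at 232 and 218 TPM) were present in all libraries. Of 21 interneuron markers 1 fell and 0 rose (median -0.10, with 14 values below 0). Their summed level was 2928 to 3139 TPM in KO (mean 3002 TPM) and 3153 to 3542 TPM in WT (mean 3316 TPM). The member that fell was Cck, with means of 1356 TPM in KO and 1626 TPM in WT. Most of the gap between the mean sums lay in Cck, and Gad1 was higher in KO. The interneuron sum therefore says little about the other interneuron markers. Of 12 pyramidal neuron markers 1 fell and 1 rose (median -0.07), with a summed level of 4691 to 4998 TPM in KO and 5057 to 5137 TPM in WT. Neither sum overlapped between the groups. Sums without overlap were not particular to cell types. Potassium channel genes summed to 4812 to 5006 TPM in KO and 5071 to 5246 TPM in WT. Other lists did overlap, such as cytosolic ribosomal protein genes (82666 to 93063 TPM in KO, 84199 to 92625 TPM in WT). Grik4 and Cpne4, which mark CA3, were at 33.1 and 54.0 TPM in KO and 39.0 and 53.5 TPM in WT, so RNA of CA3 type was present although CA3 was cut away per the protocol. In bulk tissue fewer cells of a type and less RNA per cell cannot be told apart.

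Of 22 microglia markers 11 fell and 0 rose (median -0.25), and 21 of the 22 values were below 0. Cx3cr1, the fractalkine receptor, fell from 59.2, 58.0, 55.4 and 62.3 TPM to 46.9, 46.5 and 46.6 TPM (-0.33 ± 0.06, adjusted p = 0.0126). C1qb and C1qc, subunits of the complement protein that tags synapses, fell by 0.30 ± 0.06 and 0.31 ± 0.06, and C1qa was at -0.09 (adjusted p = 0.465). Both called subunits lost the call without KO library 1 or 2, and C1qb also without WT library 4. P2ry12 (-0.25) and Aif1 (-0.07) did not pass, and Tyrobp was at 0.18. The summed level of the list was 1255 to 1281 TPM in KO and 1451.5 to 1501.5 TPM in WT, with no overlap, and its median was lower in each KO library than in each WT library. The number called was 2 without KO library 1, 3 without KO library 2, 4 without WT library 3 or 4, 5 without WT library 1 or 2, 8 without KO library 3, and 1 with the replicate number as a block. The median was -0.26 to -0.20 when any 1 library was left out.

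Of 13 oligodendrocyte precursor markers 4 fell and 0 rose, and all 13 values were below 0 (median -0.14). Olig2, a transcription factor of the lineage, fell from 55.3, 52.6, 49.2 and 59.5 TPM to 36.5, 37.2 and 39.0 TPM (-0.52 ± 0.08, adjusted p = 0.00394) under every alternative, while its footprints were at -0.02. Pdgfra, the defining receptor of these cells, was at -0.08 and did not pass. The number called was 2 without KO library 1 or 2. Of 25 myelin and oligodendrocyte markers 1 fell, Olig2 again, and 1 rose, Cnp (0.20), which lost its call without library KO 1, KO 3, WT 1 or WT 4. Of 19 fibroblast and meningeal markers 3 fell and 0 rose (median -0.16): the matrix genes Dcn (-0.47 ± 0.08) and Bgn, and Igf2. Without KO library 3, 6 were called. Dcn is also strong in CA1 and Bgn lies near Fmr1. The summed level of the list was 239 to 275 TPM in KO and 296 to 331 TPM in WT. Of 25 astrocyte markers 3 fell and 0 rose (median -0.05), with Clu, clusterin, lower at 1143 ± 37.4 TPM (KO, SD, n = 3) than at 1418 ± 37.9 TPM (WT, SD, n = 4). The count was 1 without library KO 1, KO 2, WT 1 or WT 4. Ptgds, a prostaglandin synthase of meninges and oligodendrocytes that was chosen after its values were seen, was at 576, 491 and 628 TPM in KO and 900.3, 791, 852 and 748 TPM in WT (-0.54 ± 0.08). Of 25 endothelial and mural markers 1 (4.0%) fell, near the 4.89% called over all genes tested. It was Bsg (-0.20), with no call without any one of 6 libraries. The median of these 25 markers was -0.12 with 19 values below 0. Their summed level was 1389 to 1420.1 TPM in KO and 1559 to 1606 TPM in WT, with no overlap. The summed astrocyte level did not overlap either, at 17315 to 18415 TPM in KO and 18745 to 19013 TPM in WT. For both lists the median deviation per library did overlap between the groups.

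Of 15 CA3 markers 4 fell (Slc9a4, Ptgs2, Grik4 and Cdh24) and 1 rose, Prkcd, which is also on the thalamic list. The count of 4 was 2 without library KO 1, KO 2, WT 2, WT 3 or WT 4. Of 15 thalamic markers 4 rose and 0 fell: Prkcd, Ramp3, Plekhg1 (0.44 ± 0.08) and Synpo2 (0.53 ± 0.11). The median deviation of this list was -0.268 and -0.234 in WT libraries 1 and 3 and 0.122 and 0.022 in WT libraries 2 and 4, against 0.015 to 0.107 in KO. The WT libraries spanned the whole KO range in this median, and Tcf7l2 and Lef1, which define thalamus, were at 0.03 and 0.02. The summed level did not overlap (371.5 to 394 TPM in KO, 313 to 363 TPM in WT). That sum includes Prkcd and Ramp3, for which the naming rule required no overlap. Their means were 34.7 and 35.8 TPM in KO and 18.2 and 24.4 TPM in WT, so the sum says little about the other markers. The part of thalamic tissue in the rise of Prkcd and Ramp3 was not tested. Ttr, a choroid plexus transcript that carries thyroid hormone and retinol, was at 5.01, 6.02 and 5.41 TPM in KO and 1.79, 1.77, 1.45 and 2.63 TPM in WT (1.46 ± 0.20, adjusted p = 0.0210), near the floor of the table, while 0 of the other 7 choroid and ependyma markers passed. None of 16 cortical or 13 striatal markers passed. The summed striatal level did not overlap (245 to 257 TPM in KO, 260 to 270 TPM in WT), whereas the summed cortical level did.

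**Figure D5:**
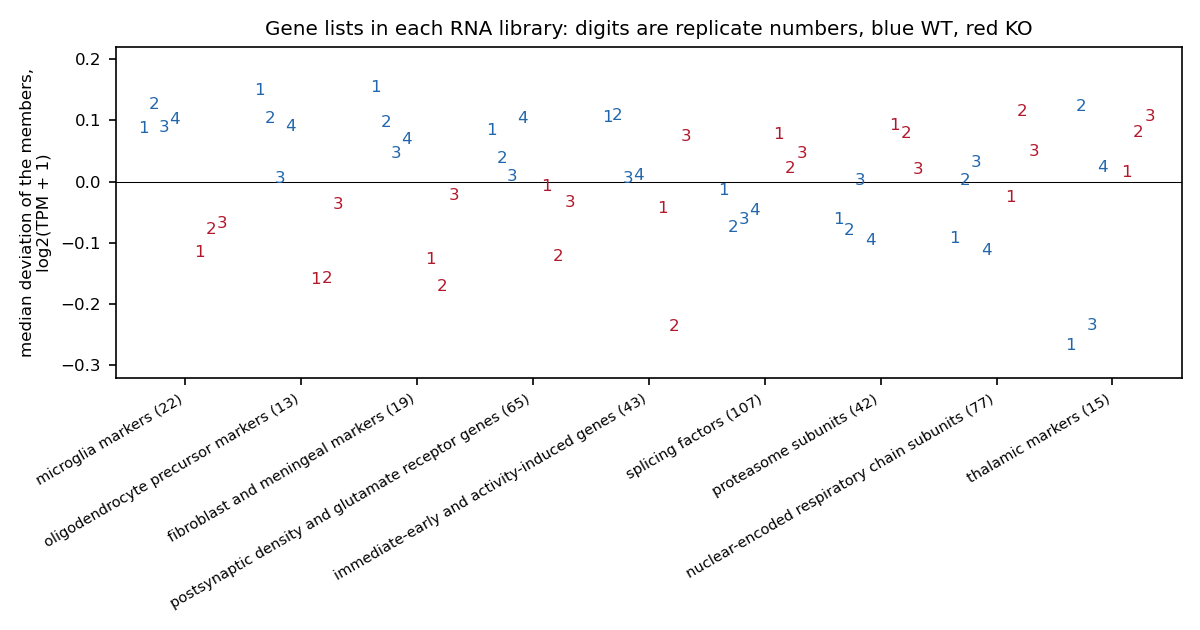
Median deviation of the members of 9 gene lists from the midpoint of each gene's KO and WT means, for each library. The scale is log2(TPM + 1), and digits are replicate numbers (WT in blue, KO in red). Microglia markers lie between -0.116 and -0.068 in KO and between 0.087 and 0.125 in WT; activity-induced genes overlap because KO library 3 (0.074) lies among the WT libraries, and thalamic markers because WT libraries 1 and 3 lie far below WT libraries 2 and 4.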

How the data were processed

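The authors deposited 1 table of estimated counts (RSEM expected counts) and 1 of TPM for 14459 genes. Per the submitters' processing notes the tools were cutadapt 1.7.1, Trimmomatic 0.32, Bowtie2 2.1.0, TopHat2 2.0.9, SAMtools 0.0.19, bedtools and RSEM 1.2.11, with the build mm10. RNA libraries held 4965844 to 9963716 counts, with a median of 114 to 229 per gene. The deposited TPM have a floor near 1 (lowest gene mean 1.03), and in each library pair KO 1 and 2, WT 1 and 2, and WT 3 and 4 the lowest value is identical. Variance over mean was 0.380 (KO) and 0.406 (WT) for genes of 20 to 50 counts, below counting noise, so counting intervals are not given and p-values may be too small. No step that would give this is named in the sources used here. Fold changes near the floor are uncertain.

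Counts were rounded and tested with edgeR 4.0.16 in R 4.3.3 (genotype as the only term, TMM scaling, genes kept by filterByExpr at a minimum count of 10, robust quasi-likelihood test, Benjamini-Hochberg adjusted p under 0.05). Every adjusted p is from it. The SE divides the size of the log2 fold change by the root of its F value, and n is 3 for KO and 4 for WT. Footprints were tested the same way on their own. Replicates are pools of several mice; the series text calls the mice littermates, but which pools share litters is not given in the sources used here, so p-values measure the spread between these pools.

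The members, the 46 gene lists and the tests were chosen with earlier results of these data known, and 3 further lists were added after seeing the values. Named genes were Fmr1, the 15 largest increases and decreases with a mean of at least 2 CPM and no overlap between groups, up to 4 members of each list by smallest p (up to 2 where none passed), called members of the chromosome X and substrain lists, and defining markers. Others named in counts of called members follow from those counts. Symbols were matched to GRCm38.p6 RefSeq (13189 directly, 650 by synonym, 38 not). Simulated data of 13907 genes were drawn with a single dispersion of 0.004 and no structure between libraries. On them the test recovered 16%, 76%, 96% and 100% of genes changed by 0.25, 0.5, 1 and 2 (log2), with 2 false among 146 calls. The deposited counts vary otherwise, so these rates do not carry over to the calls reported here. Alternatives used DESeq2 1.42.0, limma 3.58.1 on log2(TPM + 1) and log2(TPM + 0.5), voom with quality weights, RLE, upper quartile or total scaling, no filter or a mean of at least 5 TPM, a length trend removed per library, the replicate number as a block, replicates 1 and 2 against 3 and 4 as a covariate, and leaving out each library. An alternative that filtered a gene out is not counted for it. Single-gene results of a few called list members are not reported here.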

Additional observations from a re-analysis of the deposited data

Results flagged for a closer look

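Single WT libraries stood apart from the other WT libraries for 5 of 145 named genes tested by Dixon's test; chance alone flags about 1 group in 20. Ccdc114 was at 2.51 TPM in WT library 4 against 3.25 to 3.32 TPM in the other WT libraries and 1.45 to 2.11 TPM in KO. Vgf was at 227 TPM in WT library 1 against 193 to 194 TPM, and 144 to 178 TPM in KO. Atp5b was at 1634 TPM in WT library 3 against 1488 to 1503 TPM, and 1735 to 1813 TPM in KO. Mcm6 was at 10.9 TPM in WT library 2 against 13.02 to 13.33 TPM, and 14.8 to 17.6 TPM in KO. Tubb2b was at 184 TPM in WT library 2 against 197 to 198 TPM, and 224 to 229 TPM in KO. In none of these 5 genes did the library set apart reach the KO range, which the naming rule had fixed for Ccdc114. For Vgf, Mcm6 and Tubb2b that library lay on the side of the other WT libraries away from KO, so it could not reach that range.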

How the results depend on the processing

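Against 293 genes higher and 385 lower, limma called 168 and 244 on log2(TPM + 1) and 171 and 247 on log2(TPM + 0.5), and replicates 1 and 2 against 3 and 4 as a covariate gave 151 and 211. Leaving out 1 library gave 94 to 352 higher and 122 to 520 lower genes; fewer libraries were then fitted. Without KO library 1 the counts were 141 and 160, without KO library 2 119 and 122, without KO library 3 352 and 520, without WT library 1 149 and 169, without WT library 2 179 and 244, without WT library 3 231 and 240, and without WT library 4 94 and 142. DESeq2 (246 and 282), voom (337 and 482), the scalings, filters and length correction stayed within 1.5 times. The replicate number as a block gave 73 and 131. Libraries of the same number had deviations correlated at -0.06, -0.04 and -0.34. Whether the numbers pair the samples is not given in the sources used here and was not tested. Fmr1 was at -2.13 to -1.76 and past the threshold in every alternative with an adjusted p; DESeq2 gave none for it. Of the 139 named genes past the threshold 0 changed sign; of those not past it, Ide (-0.06 to 0.11) and Cyfip2 (-0.04 to 0.04) did. The cause of these shifts was not tested, and neither was the part of the smaller number of libraries. Genes near the floor of 1 TPM limit what low levels can show.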
